A study of Mus musculus with 40 samples.

Results

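The genes described here encode the subunits of oxidative phosphorylation, the chain of 5 protein complexes in the inner mitochondrial membrane. Complexes I to IV pass electrons from nutrients to oxygen and pump protons, and complex V, the ATP synthase, uses the proton gradient to make ATP. Almost all of these subunits are encoded in the nucleus, at promoters that are active in nearly every cell type. Members were found by name: a region bound by a ChIP target was taken where its nearest gene, within 200 kb, was an Nduf, Sdha to Sdhd, Uqcr, Cox4 to Cox8 or Atp5 gene. This gave 1415 of the 863771 regions of the 7 targets, next to 90 genes. A start site was found for 92 such genes among 23676 in the annotation, and the other 2 genes, Cox7b and Ndufa5, had no region. By name, 38 of the 92 belong to complex I, 7 are complex I assembly factors (Ndufaf genes), 4 belong to complex II, 8 to complex III, 18 to complex IV and 17 to complex V. The rule reads names alone, so the Ndufaf genes and the ATP synthase-like genes Atp5s and Atp5sl came in although they are not subunits of the complexes.

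ChIP-seq of CTCF, cohesin proteins and histone marks was done on small pre-B cells, which rearrange their immunoglobulin light chain genes. Cells were flow-sorted from mouse bone marrow, with 2000000 cells per ChIP. The 3 groups were wild type cells (WT), cells of Brwd1-/- mice (KO), and WT cells kept in culture with 126 nM oligomycin A for 2 h (ATPneg). Each target had 2 biological replicates per group, and the files hold 36 ChIP libraries and 4 inputs. BRWD1 is a bromodomain protein that reads acetylated histones. Oligomycin blocks the ATP synthase, whose subunits are the Atp5 genes described here. The labels describe no culture of the WT cells without the drug, so culture and oligomycin cannot be told apart. The strain, age and number of mice per sample are not given in the sources used here. ATPneg samples exist for NIPBL, RAD21, SMC3 and WAPL, as peak lists without read counts.

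RAD21 and SMC3 are subunits of the cohesin ring, which holds and folds chromatin. NIPBL loads cohesin and drives its movement along DNA, WAPL releases it, and CTCF is the DNA-binding protein at which moving cohesin stops. H3K27ac marks active promoters and enhancers, while H3K4me1 is known mainly from enhancers and from the flanks of active promoters.

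Several libraries stood apart from their groups or from their labels. For NIPBL, RAD21 and SMC3, reads in regions numbered 3784506 to 7415143 per KO library, against 15416715 to 24962590 per WT library, so depth and genotype cannot be told apart for these targets. CTCF WT replicate 2 had 17055094 reads and 67796 peaks, against 3880112 reads and 21429 peaks in WT replicate 1. The peaks inside both lists labelled H3K27ac KO carry H3K4me1 names, and those inside both lists labelled H3K4me1 WT carry H3K27ac KO names. A swap of these 4 lists cannot be settled from the files, and neither can the mark they hold, so these groups are called by their labels. The labels also differ among themselves: for the KO libraries of both marks the genotype entry reads WT, although their titles and descriptions name the knockout, by which they are grouped here. The names of NIPBL KO replicate 2 and NIPBL WT replicate 1 are of the other genotype, although their peak numbers (2048 and 25979) were like those of their labelled partners' group. Of 12 B lineage marker genes, 9 and 8 had a peak within 1 kb of the start site in the H3K27ac WT lists, 11 and 12 in H3K4me1 WT, 2 and 2 in H3K27ac KO, and 6 and 3 in H3K4me1 KO. Myeloid markers had such a peak for 0 of 7 genes in both H3K4me1 WT lists and for 1 and 2 in H3K27ac WT.

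The promoters of 6 genes carry the patterns described below and are printed first. Atp5g2, Ndufa6 and Ndufc1 gained SMC3 peaks in both KO and in both ATPneg libraries, and Uqcrc1 in both ATPneg libraries and 1 KO library. Sdhd had SMC3 peaks in both ATPneg libraries without any CTCF peak, and Ndufs3 had neither. Each sequence runs 250 bases before to 50 bases after the start, 5′ to 3′ on the gene's strand, from RefSeq on GRCm38.p6: Atp5g2 chr15:102670998-102671297 (minus strand), Ndufa6 chr15:82354242-82354541 (minus), Ndufc1 chr3:51408906-51409205 (minus), Uqcrc1 chr9:108936398-108936697 (plus), Sdhd chr9:50603800-50604099 (minus) and Ndufs3 chr2:90904672-90904971 (minus). All region positions elsewhere in the text are on mm9, the build of the files. Capitals mark letters matching NRF1 (GCGCATGCG), ETS/GABP (CCGGAAG) or CTCF (AGNNGGCGC) on either strand.
Atp5g2: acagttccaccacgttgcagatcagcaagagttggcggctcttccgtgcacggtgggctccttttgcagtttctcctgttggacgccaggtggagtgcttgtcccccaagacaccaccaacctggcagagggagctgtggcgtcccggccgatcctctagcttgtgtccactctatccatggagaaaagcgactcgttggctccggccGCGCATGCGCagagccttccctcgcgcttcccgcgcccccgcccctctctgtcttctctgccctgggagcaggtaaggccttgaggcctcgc
Ndufa6: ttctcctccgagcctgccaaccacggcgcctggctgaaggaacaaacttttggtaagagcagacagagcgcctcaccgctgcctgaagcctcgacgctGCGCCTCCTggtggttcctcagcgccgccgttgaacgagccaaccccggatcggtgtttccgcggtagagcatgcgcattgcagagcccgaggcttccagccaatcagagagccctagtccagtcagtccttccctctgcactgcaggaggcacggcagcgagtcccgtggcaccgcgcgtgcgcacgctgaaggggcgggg
Ndufc1: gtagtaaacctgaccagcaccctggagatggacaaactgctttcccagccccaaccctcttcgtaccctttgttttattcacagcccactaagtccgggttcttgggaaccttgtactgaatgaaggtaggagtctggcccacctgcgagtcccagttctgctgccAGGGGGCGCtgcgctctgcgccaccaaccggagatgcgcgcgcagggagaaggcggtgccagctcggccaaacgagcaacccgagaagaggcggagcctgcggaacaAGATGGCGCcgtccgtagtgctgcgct
Uqcrc1: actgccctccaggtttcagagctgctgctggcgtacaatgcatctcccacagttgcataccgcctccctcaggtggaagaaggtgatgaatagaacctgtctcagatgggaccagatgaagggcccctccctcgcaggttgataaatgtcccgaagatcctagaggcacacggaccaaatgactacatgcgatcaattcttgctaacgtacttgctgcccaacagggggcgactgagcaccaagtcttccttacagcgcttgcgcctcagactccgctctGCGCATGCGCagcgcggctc
Sdhd: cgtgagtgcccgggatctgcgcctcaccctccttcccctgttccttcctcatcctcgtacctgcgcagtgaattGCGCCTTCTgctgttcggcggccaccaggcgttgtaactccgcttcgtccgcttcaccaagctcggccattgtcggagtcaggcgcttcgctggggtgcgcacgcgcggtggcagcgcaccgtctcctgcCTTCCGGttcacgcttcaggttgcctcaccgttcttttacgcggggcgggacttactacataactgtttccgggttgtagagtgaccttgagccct
Ndufs3: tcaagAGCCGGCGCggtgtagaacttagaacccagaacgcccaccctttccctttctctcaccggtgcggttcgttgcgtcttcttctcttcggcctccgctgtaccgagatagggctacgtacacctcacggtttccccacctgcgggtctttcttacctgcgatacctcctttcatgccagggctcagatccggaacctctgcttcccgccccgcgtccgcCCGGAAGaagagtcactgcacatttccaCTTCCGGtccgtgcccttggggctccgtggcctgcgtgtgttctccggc
In the Atp5g2 promoter the capitals are a palindromic NRF1 match on both strands, 41 and 42 bases before the start, and in Uqcrc1 the same letters lie 30 and 31 bases after it. Ndufa6 holds the CTCF letters 152 bases before the start, and Ndufc1 holds them 84 bases before and 23 bases after it. Sdhd holds CTCF letters 176 bases and ETS/GABP letters 46 bases before the start. Ndufs3 holds CTCF letters 245 bases before it and ETS/GABP letters 27 bases before and 1 base after it. NRF1 and GABP are the textbook activators of nuclear genes for the respiratory chain.

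Promoter sequences were matched for 76 of the 92 genes, 73 by symbol and 3 by an older symbol. The NRF1 letters were in 10 of the 76 (13.2%), against 1.81% of 27025 promoters of the same length. ETS/GABP letters were in 16 (21.1% against 9.12%) and the YY1 letters ATGGCGGC in 7 (9.21% against 2.38%). The SP1 letters GGGCGG were in 34 (44.7% against 35.9%), and the CTCF letters in 7 (9.21% against 7.32%). Against the 17741 promoters of genes in the files the shares were 2.40% for NRF1, 11.9% for ETS/GABP and 3.25% for YY1, below the members, and 47.1% for SP1 and 9.38% for CTCF, above them. A match is a string of letters and not a bound site. The promoters with SMC3 peaks in both ATPneg libraries included 5 of the 10 with NRF1 letters and 37 of the 66 without them (over all genes in the files, 42.3% and 25.2%). For the SP1 letters the counts were 23 of 34 with them and 19 of 42 without (67.6% and 45.2%, against 36.1% and 16.3%). For the CTCF letters they were 4 of 7 and 38 of 69 (57.1% and 55.1%, against 42.4% and 23.9%). These differences were not tested. Median GC content was 57.8% over the 76 promoters, 59.5% over the 42 with SMC3 in both ATPneg libraries, and 55.5% over the 18 with SMC3 in neither.

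The clearest pattern at these genes was SMC3 at start sites of oligomycin-treated cells. An SMC3 peak lay within 1 kb of the start site for 59 and 56 of the 92 genes in the ATPneg libraries, for 2 and 0 in WT and for 8 and 6 in KO. Over all 23676 start sites the ATPneg shares were 31.1% and 29.2%, against 64.1% and 60.9% of the members. The shares of all start sites were 1.13% and 1.67% in WT and 4.17% and 4.33% in KO. The groups ATPneg and WT did not overlap. With 2 libraries against 2 the smallest two-sided p of an exact permutation test is 0.333, so this test cannot pass a threshold of 0.05. The measure of start sites was added after the data were seen, since the merged regions were made without ATPneg peaks. SMC3 peak numbers were similar between ATPneg (40667 and 39437) and WT replicate 1 (41044), and higher in WT replicate 2 (64033).

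**Figure D1:**
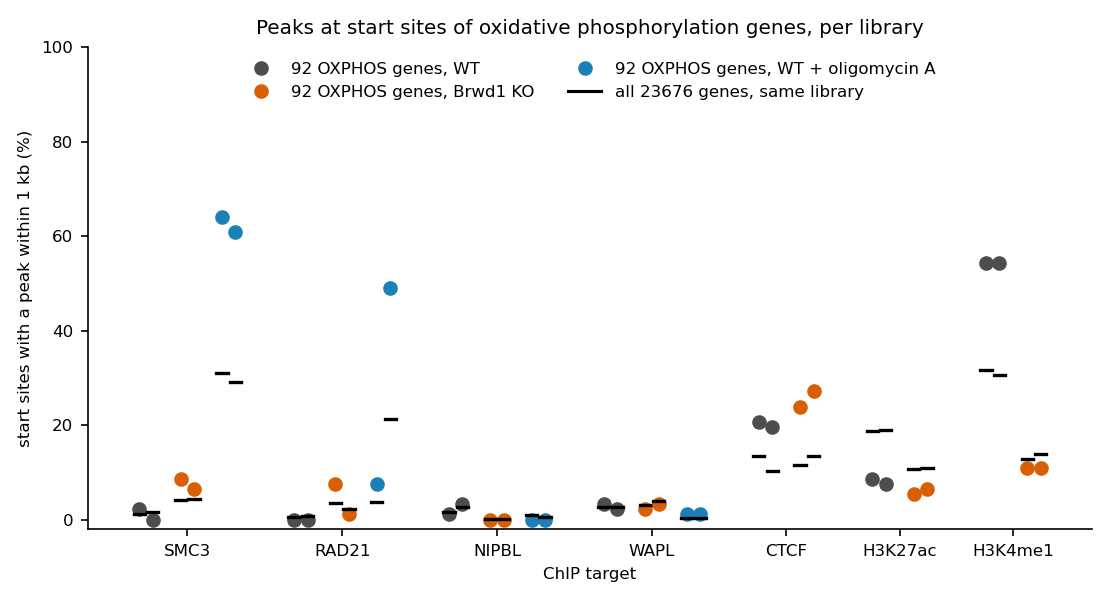
Share of start sites (percent, vertical axis) with a peak within 1 kb, for each target, group and replicate; coloured points are the 92 oxidative phosphorylation genes in 1 library, and black bars are all 23676 start sites in the same library. SMC3 in ATPneg stands at 64.1% and 60.9% of the members and 31.1% and 29.2% of all genes, and in WT at 2.17% and 0%.

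Of the 92 genes, 47 had an SMC3 peak in both ATPneg libraries and in neither WT library (51.1%), against 23.2% of all start sites. Adding Cox7a1, the muscle and heart isoform of a complex IV subunit, which also had a peak in WT replicate 1, gives 48 genes with SMC3 in both ATPneg libraries. A further 19 genes had it in 1 of them, and 25 had none. The ATPneg peaks sat on the start sites themselves: their median distance from peak centre to start was 96.8 and 85.0 bases, their median width 565 and 546.5 bases, and 56 and 48 of the peaks covered the start. In the plot of SMC3 peaks by distance, 60.9% and 52.2% of the members had a peak over the start position in the ATPneg libraries. The shares of all start sites were 23.1% and 21.6%, and these too were highest at the start itself. Peak distance and width were not taken at all start sites.

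**Figure D2:**
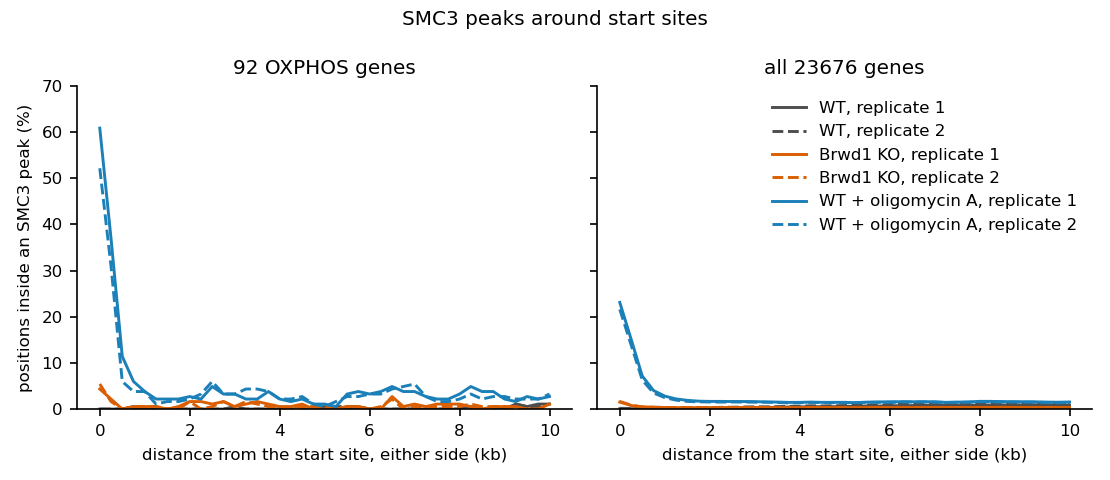
Share of positions (percent, vertical axis) inside an SMC3 peak at each distance on either side of the start site (horizontal axis, kb), with a line per library, for the 92 genes (left) and for all 23676 start sites (right). The ATPneg lines peak at the start, at 60.9% and 52.2% of the members and 23.1% and 21.6% of all genes, while the WT lines stay near 0.

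Every complex took part. In complex I, SMC3 peaks were at 26 and 25 of 38 start sites in the ATPneg libraries, among them Ndufv1, Ndufv2 and Ndufs8 of the catalytic core. Of the same core, Ndufs3 and Ndufs7 had a peak in neither library and Ndufs1 in replicate 2 alone. Complex I assembly factors had them at 5 and 5 of 7. In complex II, the succinate dehydrogenase, Sdhb, Sdhc and Sdhd had one in both libraries and the flavoprotein gene Sdha in neither. Complex III had 7 and 4 of 8, with the core genes Uqcrc1 and Uqcrc2 in both. Complex V had 11 and 12 of 17, among them the catalytic beta subunit Atp5b and the gamma subunit Atp5c1 in both. The alpha subunit gene Atp5a1 had a peak in neither. Complex IV had the lowest share, 7 and 7 of 18, and the genes without a peak included Cox4i1, the ubiquitous isoform of subunit 4. Differences between complexes were not tested.

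Complex IV holds most of the isoforms of restricted tissue, such as the testis isoforms Cox6b2, Cox7b2 and Cox8c and the muscle isoforms Cox6a2, Cox7a1 and Cox8b. Of 8 isoform genes of restricted tissue, Cox7a1 alone had an SMC3 peak in ATPneg, against 58 and 55 of the other 84 members. Among 47 other genes of the pathway with a start site (assembly factors, cytochrome c and transcription regulators), 34 and 26 had one. These included 13 and 13 of 17 complex IV assembly factors, and 7 and 2 of 11 transcription regulators. B lineage markers had one at 2 and 1 of 12 start sites.

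**Figure D3:**
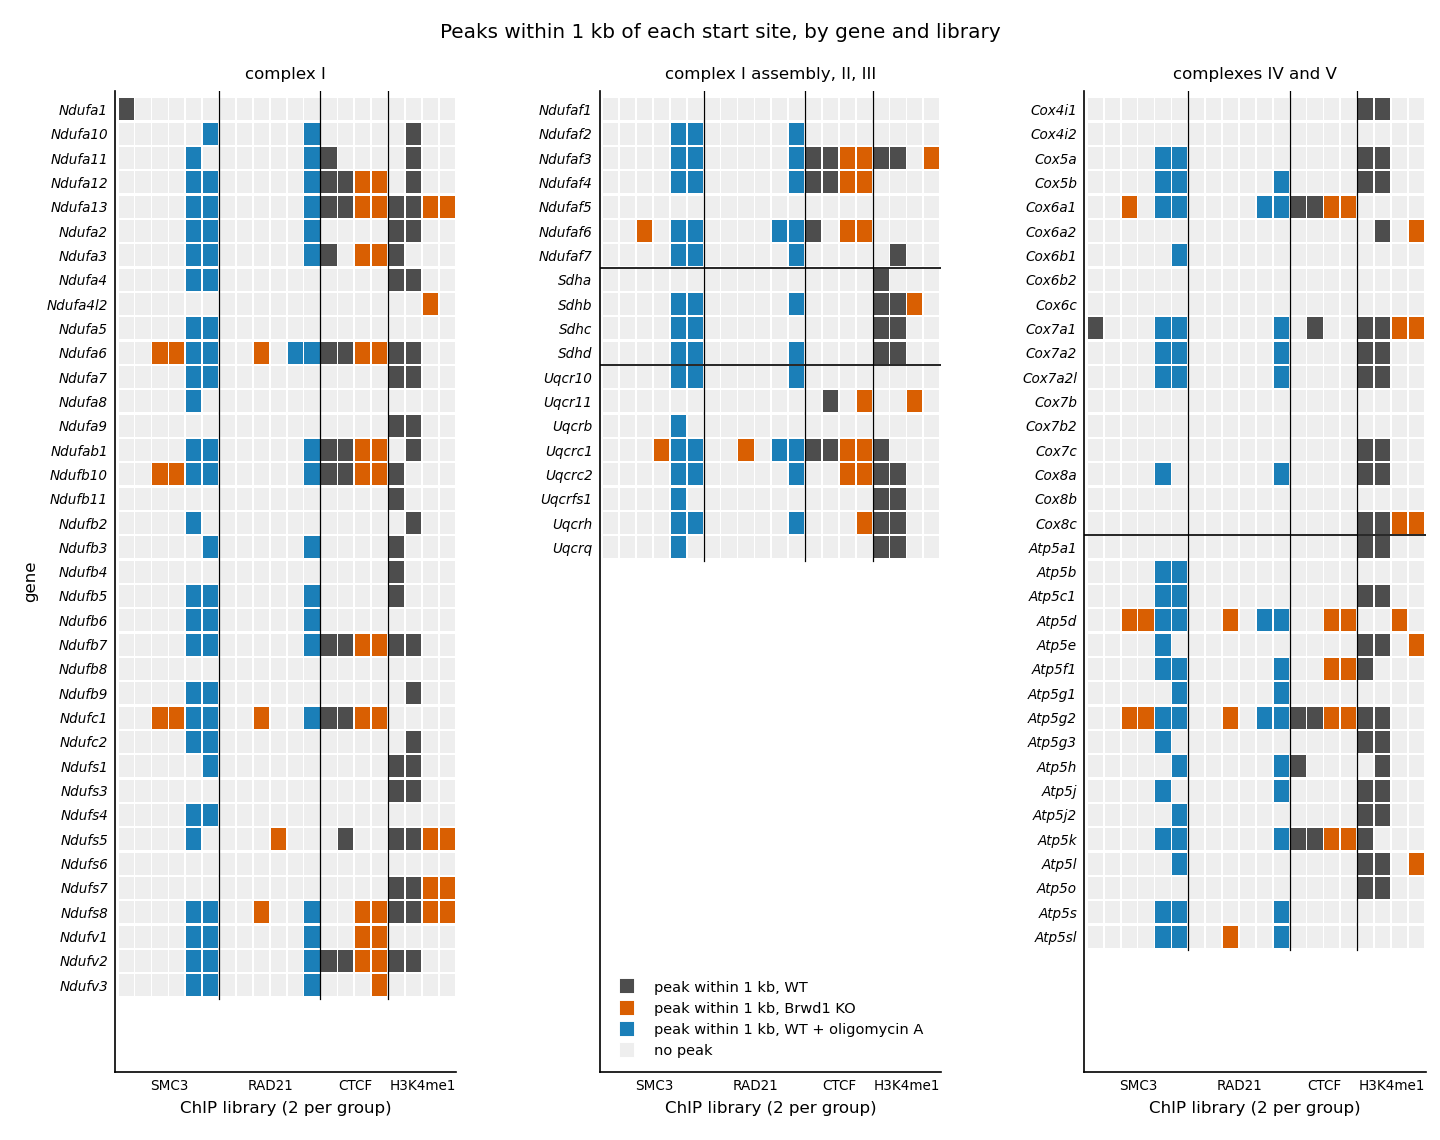
Peaks within 1 kb of the start site of each gene (rows, grouped by complex; 1 of the 92 genes is not shown) in each SMC3, RAD21, CTCF and H3K4me1 library (columns, by target and then group); a coloured cell is a peak in WT (grey), KO (orange) or ATPneg (blue). The ATPneg columns of SMC3 and of RAD21 replicate 2 are filled across the complexes, and the WT columns of both are nearly empty.

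RAD21, the ring's other subunit measured here, showed the pattern in 1 of 2 libraries. RAD21 peaks were at 7 and 45 of the 92 start sites in ATPneg (7.61% and 48.9%), at 0 and 0 in WT, and at 7 and 1 in KO. The shares of all start sites were 3.68% and 21.3% in ATPneg, 0.54% and 0.76% in WT and 3.54% and 2.34% in KO. The ATPneg libraries had 16375 and 35784 RAD21 peaks in all. Of the 48 genes with SMC3 in both ATPneg libraries, 7 had RAD21 in ATPneg replicate 1 and 38 in replicate 2. These are 14.6% and 79.2%, against 13.3% and 70.2% of all start sites with SMC3 in both ATPneg libraries. RAD21 was in both ATPneg libraries and in neither WT library at 7 genes, among them Atp5d, Atp5g2, Cox6a1, Ndufa6, Ndufaf6 and Uqcrc1, 7.61% of the members against 2.93% of all start sites. NIPBL had no peak at any of the 92 start sites in ATPneg and at 1 and 3 in WT. For all start sites the NIPBL shares were as low, 0.93% and 0.63% in ATPneg and 1.59% and 2.58% in WT. WAPL had a peak at 1 in each ATPneg library, at Atp5f1, and at 3 and 2 in WT. For all start sites the WAPL shares were 0.34% and 0.44% in ATPneg and 2.70% and 2.71% in WT. NIPBL and WAPL peaks in all numbered 14522 and 10224, and 3280 and 4623, in ATPneg.

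The start sites that gained SMC3 were partly those with CTCF. All 22 members with a CTCF peak in both KO libraries had SMC3 in both ATPneg libraries, against 82.3% of all such start sites. Of the 63 members without a CTCF peak in any library, 23 had it (36.5%), against 14.9% of all such start sites. By the lists labelled H3K4me1 WT, SMC3 was in both ATPneg libraries at 22 of 40 members with that mark in both lists (55.0% against 43.4%) and at 15 of 32 without it (46.9% against 14.3%). CTCF itself had a peak at 22 and 25 members in KO and at 19 and 18 in WT, and has no ATPneg sample. The CTCF shares were 23.9% and 27.2% of members in KO, against 11.5% and 13.5% of all start sites. In WT they were 20.7% and 19.6% of members, against 13.5% and 10.4%.

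Counted over the member regions of the rule, which extend to 200 kb, ATPneg and WT differed less for SMC3. Of 137 SMC3 regions, 41.6% and 43.8% overlapped an ATPneg peak, 35.0% and 48.2% a WT peak and 38.7% and 32.8% a KO peak, so ATPneg lay within the range of WT. Over all SMC3 regions the shares were 22.1% and 22.6% in ATPneg, 40.9% and 74.4% in WT and 14.9% and 14.7% in KO. With peaks of at least 2 times the lowest score of their list, the members' shares were 40.1% and 40.1% in ATPneg and 9.49% and 26.3% in WT, and these did not overlap. Shares over all regions were not taken at this score for any target, so whether that is particular to the members is not known. Of 140 RAD21 regions, 21.4% and 32.1% overlapped an ATPneg peak and 33.6% and 36.4% a WT peak, against 14.8% and 13.3%, and 41.1% and 50.002%, of all its regions. At the stricter score the direction of the means turned, with 12.9% and 29.3% in ATPneg and 9.29% and 15.0% in WT. NIPBL peaks overlapped 21.2% and 10.6% of 85 regions in ATPneg and 35.3% and 91.8% in WT, near the shares of all its regions (21.5% and 15.6%, and 41.9% and 90.6%). WAPL peaks overlapped 2.40% and 2.40% of 167 regions in ATPneg and 50.9% and 59.3% in WT, and the 2 groups did not overlap for either NIPBL or WAPL. For WAPL the shares over all its regions were 2.39% and 3.46% in ATPneg and 56.0% and 59.4% in WT. Within 5 kb of a start site the mean share in ATPneg minus WT was 75.0 percentage points for SMC3 and 58.7 for RAD21. These regions exist only where a KO or WT peak was called. Of the 28 SMC3 regions within 5 kb, 21 and 19 overlapped KO peaks and 4 and 1 WT peaks. Of 23 for RAD21, 18 and 5 overlapped KO peaks and 1 and 0 WT peaks. The low WT shares are thus in part fixed by that choice, and shares over all regions within 5 kb were not taken.

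In KO cells SMC3 rose at 59 of the 129 member regions tested and fell at 16. Levels are CPM, read counts scaled with TMM factors to each library's reads in the tested regions of the target. Calls are edgeR quasi-likelihood tests with Benjamini-Hochberg adjusted p under 0.05 over all regions of the target. Over all 77109 regions tested, 22.1% were called higher and 18.1% lower. The median log2 fold change, KO over WT, was 0.28 for the members and -0.22 for all regions. The higher regions lay by 37 genes and the lower by 9. The 59 higher regions comprised 24 of complex I, 5 of its assembly factors, 3 of complex II, 5 of complex III, 12 of complex IV and 10 of complex V. All 3 complex II regions tested were higher. A region enters the table because a peak was called in a KO or a WT library: 54 of the 59 higher regions had a peak in KO lists alone, and all 16 lower regions in WT lists alone, so the direction is in part fixed by that choice.

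Of 11 SMC3 regions within 1 kb of a start site, 10 were tested and 9 were higher in KO. All 9 had peaks in KO lists alone. Over all such regions near start sites 75.9% were called higher and 2.05% lower, so the members' share was near the background of promoters. The highest KO mean among them was at Atp5g2, just above Ndufa6, whose WT levels were higher. Atp5g2 encodes a c subunit of the proton-driven rotor of the ATP synthase. At its start (chr15:102501442-102501817) SMC3 stood at 18.8 and 19.5 CPM in KO (79 and 86 reads) and at 1.37 and 1.13 in WT (21 and 18 reads). Both KO values were far above both WT values, with a log2 fold change of 3.93 (SE 0.23, edgeR adjusted p = 0.000571).

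Ndufa6, an accessory subunit of complex I, had 19.1 and 19.0 CPM in KO and 2.09 and 1.81 in WT (chr15:82184579-82185041, log2 fold change 3.28, SE 0.21). Ndufc1, a small membrane subunit of complex I, had 11.2 and 14.5 in KO and 1.24 and 1.50 in WT (chr3:51212825-51213075, 3.22, SE 0.27). Uqcrc1, a core protein of complex III, had 7.87 and 9.95 in KO and 0.78 and 0.56 in WT (chr9:108838537-108838713, 3.71, SE 0.33). In each of these genes the KO and WT values did not overlap. These are the promoters printed above, and CTCF peaks lay at the same start sites in all 4 CTCF libraries. Ndufb10, Ndufaf6, Atp5d and Cox6a1 were also among the 9, with log2 fold changes of 3.61, 3.33, 2.53 and 3.72 and edgeR adjusted p from 0.000714 to 0.00273. Cox7a1 was the region tested and not called, at 1.19 and 1.81 in KO and 2.87 and 0.81 in WT. At Ndufa1 the region held 2 and 1 reads in KO and 41 and 9 in WT and was left out by the count filter.

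The promoter calls of SMC3 in KO and the ATPneg peaks fell on the same start sites. All 9 called regions overlapped SMC3 peaks in both ATPneg libraries and CTCF peaks in both KO libraries. Over all genes, 721 start sites had SMC3 peaks in both KO libraries. Of these, 99.2% and 98.9% had SMC3 peaks in the ATPneg libraries. CTCF peaks of the KO libraries lay at 97.8% and 97.9% of them, so the members' overlap was near that of all genes. The KO and ATPneg comparisons share the WT libraries. Peak lists of KO placed SMC3 in both KO libraries and in neither WT library at 5 genes, Atp5d, Atp5g2, Ndufa6, Ndufb10 and Ndufc1 (5.43% of the members against 2.75% of all start sites). Cox6a1, Ndufaf6 and Uqcrc1 were among the genes with an SMC3 peak in 1 KO library. Other start sites with SMC3 in both ATPneg libraries, such as Atp5b and Sdhd, had no SMC3 peak in KO. The KO libraries held 12467 and 12323 SMC3 peaks.

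Away from start sites, the rises named by size and level were at narrow regions. A region 15 kb from Cox4i1 (chr8:123207556-123207880) stood at 18.6 and 17.0 CPM in KO and at 1.04 and 0.69 in WT, a log2 fold change of 4.34 (SE 0.29). One 13 kb from Atp5o, which encodes the stalk subunit OSCP (chr16:91917964-91918393), stood at 14.5 and 16.3 in KO and 0.91 and 0.63 in WT (4.31, SE 0.29). Regions by Ndufb9 and Ndufa10 had log2 fold changes of 4.19 and 4.19. Groups that did not overlap were a condition of naming these regions. The median length was 324 bases over the 59 higher regions, of which 53 overlapped CTCF peaks in both KO libraries (89.8%), against 78.7% of all higher regions. Both ATPneg libraries had SMC3 peaks at 54 of the 59 (91.5%), against 84.5% of all higher regions.

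**Figure D4:**
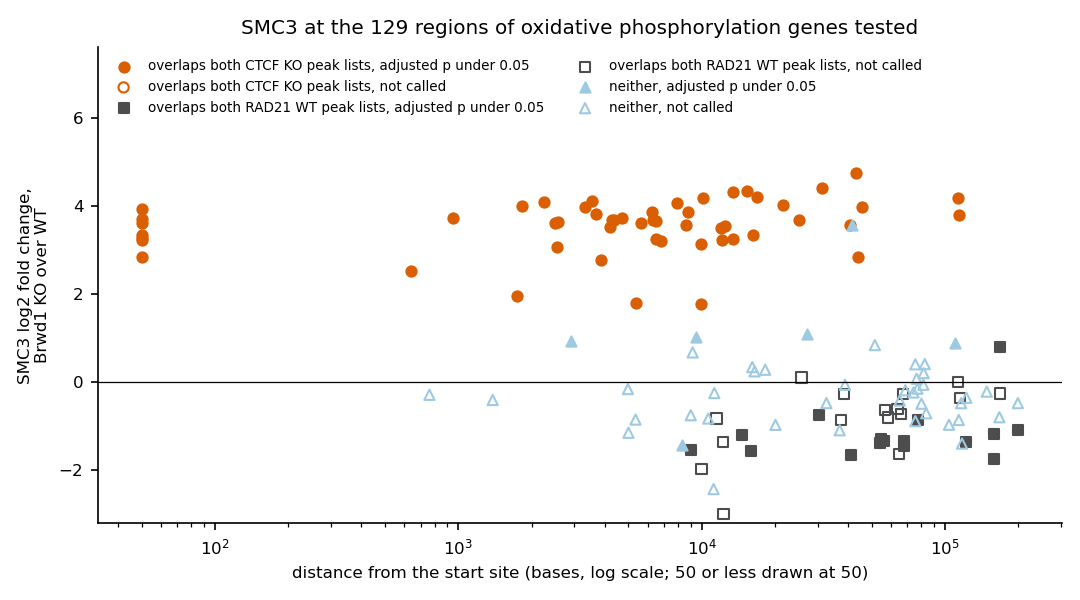
SMC3 log2 fold change of each tested member region, KO over WT (vertical axis), against its distance to the nearest start site (horizontal axis, bases, log scale). Orange circles overlap CTCF peaks of both KO libraries, grey squares RAD21 peaks of both WT libraries and blue triangles neither; filled symbols passed the edgeR test. The 9 called regions within 1 kb all lie above 2.5, and the 16 lower regions lie over 1 kb away.

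Length was 3709.5 bases in the median over the 16 lower regions. The exception was a region of 118 bases by Cox6a1, over dense input (above 100 input reads per kb), and the other 15 were at least 789 bases long. All 16 lay over 5 kb from a start site. They were nearest to Ndufa4 (5 regions), Cox7b2 (4), Cox6a1, Cox6c, Cox7c, Ndufa8, Ndufa10, Uqcrb and Uqcrfs1. The interval with the largest fall, 160 kb from Cox7b2 (chr5:71773965-71779856), stood at 13.6 and 14.7 CPM in KO and 44.3 and 50.3 in WT, a log2 fold change of -1.74 (SE 0.15, edgeR adjusted p = 0.000638). One 41 kb from Ndufa4, a gene named for complex I whose product is now counted with complex IV, stood at 2.62 and 2.71 in KO and 8.68 and 8.25 in WT (-1.66, SE 0.24). WT RAD21 peaks of both libraries overlapped 15 of the 16, against 89.6% of all lower regions. The nearest gene of such an interval is a name from position, and the intervals near Cox7b2 lie by a testis isoform. Within 5 kb of a start site all 24 called SMC3 regions were higher. That direction too is in part fixed by the choice of regions. Of the 28 regions there, 21 and 19 overlapped KO peaks and 4 and 1 WT peaks.

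RAD21 was called higher at 4 of 136 member regions and lower at 23, where 2.30% and 21.1% of all regions were called. Members had a median log2 fold change of 0.61, and all regions -0.39. The adjusted p of these calls lay close to 0.05 and the calls were lost in most alternatives, given in the closing section. The split also turned: 19 of 25 calls were higher with DESeq2 and 59 of 88 without KO replicate 2. The lower regions were again distal: 8 were nearest to Ndufa4 and 5 to Cox7b2. The largest fall by the naming rule, 37 kb from Ndufa4 (chr6:11818746-11820196), was 1.75 and 1.67 CPM in KO against 6.43 and 7.99 in WT (-2.07, SE 0.30, edgeR adjusted p = 0.043). The intervals overlapped between the proteins: 13 of the 16 lower SMC3 regions (81.2%) were overlapped by a lower RAD21 region and 13 by a lower WAPL region, and 14 of the 23 lower RAD21 regions (60.9%) by a lower SMC3 region. Of the 37 lower WAPL regions, 17 (45.9%) were overlapped by a lower SMC3 region and 24 (64.9%) by a lower RAD21 region. These overlaps were not counted over all lower regions. All 4 higher RAD21 regions, by Ndufaf2, Ndufs4, Atp5g3 and Ndufa4, lay over dense input, as did 38.6% of all RAD21 regions.

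At start sites the RAD21 KO libraries went apart. Atp5g2 had 6.58 and 0.42 CPM in KO and 1.71 and 1.16 in WT. Ndufa6 had 8.99 and 0.83 in KO and 1.50 and 1.65 in WT, and Uqcrc1 5.10 and 0.14 in KO and 1.04 and 0.58 in WT. In each, KO replicate 1 was above and KO replicate 2 below both WT libraries, and none of the 7 RAD21 promoter regions tested was called (edgeR adjusted p 0.195 to 0.363), where 4.41% of all such regions were called. Ndufs5, a complex I subunit, was the exception in pattern: 4.30 and 6.53 in KO and 3.47 and 3.75 in WT.

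WAPL was called higher at 22 of 167 member regions and lower at 37, where 13.1% and 27.6% of all its regions were called. All 22 higher regions lay over dense input, as did 71.3% of the members not called and 54.2% of all WAPL regions, and the split turned with the scaling: with library totals 37 of 72 calls were higher, and with background scaling 58 of 85. The largest fall by the naming rule was in an interval 200 kb from Cox7b2 (chr5:71736466-71739651), at 4.36 and 3.85 CPM in KO and 14.4 and 14.3 in WT (-1.80, SE 0.16). Of the 37 lower regions 14 were nearest to Ndufa4. None of the 3 WAPL regions within 1 kb of a member's start was called by edgeR, where 23.9% of all such regions were called. NIPBL had no call among 85 member regions by edgeR, where 1.63% of all regions were called. Its 2 groups differ in depth most of all, with 3803369 and 3784506 reads in KO and 17681215 and 16916106 in WT.

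CTCF had no call among 167 member regions by edgeR or DESeq2, where edgeR called 0.0396% of all regions, and 22 members had an unadjusted p under 0.05. Of 27 CTCF regions within 1 kb of a member's start, 25 had a log2 fold change above 0, and at 18 the KO and WT values did not overlap. These 2 counts were not taken over all such regions, and the count of unadjusted p was not taken over all CTCF regions. The median log2 fold change was 1.00 for the 27 and 0.83 for all such regions tested, so promoters in general shifted the same way. Atp5g2 stood at 34.7 and 42.7 CPM in KO and at 30.0 and 6.90 in WT. Ndufc1 stood at 44.7 and 55.0 in KO and at 40.2 and 9.27 in WT. In both genes both WT libraries lay below KO, replicate 2 by far more than replicate 1. Without WT replicate 1 edgeR called 155 member regions and without WT replicate 2 it called 25.

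The libraries labelled H3K4me1 KO were lower than those labelled H3K4me1 WT at most member promoters. Of 64 promoter regions, at 59 genes, 46 were lower and 3 higher by edgeR. Over all 9693 regions near start sites 56.1% were lower and 10.6% higher. The median log2 fold change was -1.09 for the members and -0.78 for all such regions. Of the 46 lower regions 43 had peaks in WT lists alone, so the direction is in part fixed by the choice of regions. Because the lists labelled H3K4me1 WT carry names of another mark and genotype, this comparison may set one mark against another, and mark and genotype cannot be told apart.

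By complex, 21 of 30 promoter regions of complex I were lower, 2 of 4 of complex II, 6 of 7 of complex III, 7 of 11 of complex IV and 9 of 11 of complex V. Atp5c1, the gamma subunit of the rotor, had 0.73 and 0.81 CPM in the KO-labelled libraries and 4.05 and 4.96 in the WT-labelled ones (chr2:10001497-10002080, log2 fold change -2.55, SE 0.24, edgeR adjusted p = 5.67e-23). Cox7a2l, which joins complexes III and IV into supercomplexes, had 1.76 and 1.86 against 8.51 and 9.11 (chr17:83913006-83914071, -2.28, SE 0.17). Uqcrc2, a core protein of complex III, had 0.73 and 0.76 against 3.43 and 3.46 (-2.21, SE 0.26). The 2 groups did not overlap at any of these genes, which for Atp5c1 and Cox7a2l was a condition of naming them.

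The highest level was at Ndufaf3, an assembly factor of complex I, with 10.2 and 11.0 CPM in the KO-labelled and 29.4 and 27.2 in the WT-labelled libraries (-1.41, SE 0.08). Some promoters did not follow. The core subunit Sdha of complex II had 2.13 and 1.98 against 2.68 and 2.50 (-0.33, SE 0.22) and did not pass the test. The 3 higher regions were at Ndufa4l2 (5.96 and 5.06 against 0.99 and 1.23, 2.29, SE 0.20), known as a hypoxia-induced relative of Ndufa4, at Uqcr11 of complex III (2.92 and 2.85 against 1.22 and 1.58, 1.02, SE 0.23) and at the muscle isoform Cox6a2 (0.57, SE 0.18). Cox7a1 and the testis isoform Cox8c did not pass the test, at 0.06 (SE 0.12) and 0.01 (SE 0.14).

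**Figure D5:**
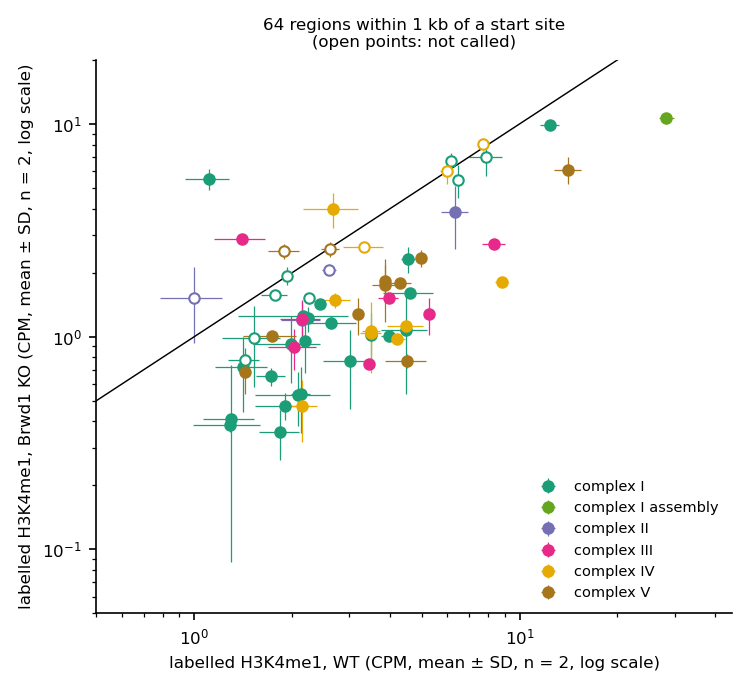
Level of each of the 64 member promoter regions in the libraries labelled H3K4me1, KO (vertical axis) against WT (horizontal axis), in CPM on log axes, as mean with SD of 2 libraries; colours are complexes, open points were not called, and the line marks equal levels. By edgeR 46 regions were lower in the KO-labelled libraries and 3 higher, with Ndufa4l2 the furthest above.

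The regions were made from the peak lists, so the lists give no separate view of the split. In them, 50 and 50 of the 92 start sites had a peak in the WT-labelled lists (54.3%, against 31.6% and 30.6% of all genes) and 10 and 10 in the KO-labelled lists (10.9%, against 12.9% and 13.9%). A peak in both WT-labelled and neither KO-labelled list was found at 30 members, 32.6% against 16.8% of all start sites. Over all 335 member regions tested, 32 were higher and 69 lower, where 6.44% and 9.98% of all regions were called. Over 1 kb from start sites 29 of 271 were higher and 23 lower, where 6.20% and 7.35% of all such regions were called.

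In the libraries labelled H3K27ac, 28 of 368 member regions were called higher in KO and 32 lower, where 5.90% and 10.6% of all regions were called. That split also turned with the scaling: 46 of 65 calls were higher with library totals and 20 of 92 with background scaling. H3K27ac-labelled peaks lay at 8 and 7 of the 92 start sites in WT and at 5 and 6 in KO. These were below the shares of all start sites, 18.8% and 18.9% in WT and 10.8% and 11.0% in KO. Of 9 promoter regions tested, 3 were lower, at Cox5a, Ndufaf3 and Cox8c, and 1 was higher, at Ndufs7, where 22.2% and 8.48% of all regions near start sites were called. Ndufaf3 had 1.09 and 1.02 CPM in KO and 1.98 and 2.42 in WT (-1.06, SE 0.24). Cox5a, a subunit of complex IV, had 0.04 and 0.04 against 0.42 and 0.62, near the count filter.

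Promoter calls were made in 2 targets at 6 genes, a count not taken over all genes. Of all regions near start sites, 75.9% were called higher in SMC3 and 56.1% lower in the H3K4me1-labelled libraries. In the H3K27ac-labelled libraries 22.2% were called lower and 8.48% higher. At Atp5g2, Ndufa6 and Uqcrc1, SMC3 was higher in KO while the H3K4me1-labelled signal was lower. The signals labelled H3K27ac and H3K4me1 were both lower at Cox5a and Ndufaf3, and at Ndufs7 H3K27ac-labelled signal was higher and H3K4me1-labelled signal lower. At Atp5g2 the H3K4me1-labelled level was 2.07 and 1.57 CPM in KO and 3.90 and 3.81 in WT (-1.09, SE 0.20).

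Other genes of the pathway, 49 listed assembly factors, cytochrome c genes and regulators, were read in the same way. In SMC3, 24 of their 83 tested regions were higher in KO and 14 lower, where 22.1% and 18.1% of all regions were called. All 5 promoter regions were higher, where 75.9% of all such regions were. They lay at Cox14, Lyrm7, Sco2 (2 regions) and Taco1, with log2 fold changes from 2.50 to 4.26. In the H3K4me1-labelled libraries 20 of 28 promoter regions were lower and 2 higher, by Atpaf2 and Taco1. Over all such regions 56.1% were lower and 10.6% higher. The lower ones of this list included the regulators Gabpb1, a subunit of GABP (2.98 and 4.36 CPM against 52.6 and 51.1, -3.81, SE 0.09), and Nrf1 (2.13 and 2.85 against 14.3 and 14.1, -2.50, SE 0.14). These are the factors whose letters were searched in the member promoters. Calls were 0 higher and 0 lower of 88 for CTCF, 0 and 1 of 58 for NIPBL, 2 and 19 of 95 for RAD21, 6 and 34 of 108 for WAPL and 13 and 24 of 244 for H3K27ac. Of all regions, 0.0396% were called for CTCF and 1.63% for NIPBL. The shares higher and lower were 2.30% and 21.1% for RAD21, 13.1% and 27.6% for WAPL and 5.90% and 10.6% for H3K27ac.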

How the data were processed

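ChIP-seq counts, scores and peaks of 7 targets were used as deposited. The submitters' processing notes name the build mm9 and, without versions, edgeR, featureCounts, bedtools, MACS2, Picard and BWA. Counts as deposited are reads in merged regions, with a column per KO or WT library and, outside the histone marks, per genotype's input. The score in the authors' second table, counts after removal of input, served as an alternative. The deposited normalized signal tables gave the region annotation, and their signal entered no test. Each library's deposited peak list holds positions with a score per peak, whose upstream cut is not given in the sources used here. The files hold 2 per-sample columns of samples outside the labels, not used here.

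Regions were joined by their identifiers and assigned to the nearest gene within 200 kb. Counts were fitted with edgeR 4.0.16 in R 4.3.3 (TMM, filterByExpr with a minimum count of 10, quasi-likelihood F test, Benjamini-Hochberg over all regions of a target, 2 KO against 2 WT), after checks on simulated data. SE is the absolute log2 fold change divided by the square root of F. The labels call the replicates biological, and p-values measure the spread between these libraries. Peaks were overlapped at 1 base, in Python 3.11.15. Alternatives were DESeq2 1.42.0, library totals (reads in the tested regions, without TMM factors), background scaling (lowest 25% of regions), no filter, input-subtracted counts, a replicate block, left-out libraries, a 5 kb limit, a 50% overlap and a peak score of 2 times the lowest.

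Named regions follow a rule: per target the first 4 higher and 4 lower called regions by fold change among those of at least median level and separate groups, promoters of a panel of 22 genes, 8 isoforms of restricted tissue, and the 5 genes with calls in the most targets. The other SMC3 and H3K4me1 promoters, and the regions of other targets at the same genes, were named after their values were seen. The values of 1 member are not reported here, although it stays in the counts. The members, gene lists and motifs were chosen with earlier results of these data known.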

Additional observations from a re-analysis of the deposited data

How the results depend on the processing

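The SMC3 calls were the steadiest: 59 higher and 16 lower by edgeR, 62 to 85 calls with 1 library left out, and 24 within 5 kb of a start site. The 9 promoter calls of SMC3 stayed at 9, or 8 without KO replicate 2. RAD21 went from 27 calls to 25 with DESeq2 (19 higher), and to 0 with background scaling, without the filter, with input-subtracted counts, with the replicate block and within 5 kb, and ran from 0 (without either WT library) to 88 (59 higher, without KO replicate 2) with 1 library left out. WAPL went from 59 to 30 with DESeq2, 72 with library totals (37 higher), 85 with background scaling (58 higher), 30 with input-subtracted counts, 3 within 5 kb, and 7 to 89 with 1 library left out (7 and 8 without KO replicate 1 or 2). H3K27ac went from 60 to 18 with DESeq2, 65 with totals (46 higher), 92 with background scaling (20 higher), 52 with input-subtracted counts (27 higher), 11 within 5 kb and 40 to 48 with 1 library left out. H3K4me1 went from 101 to 46 with DESeq2, 60 within 5 kb and 68 to 81 with 1 library left out, and its promoter calls from 49 to 29 with DESeq2 and 36 to 43. CTCF went from 0 to 155 without WT replicate 1 and 25 without WT replicate 2. NIPBL went from 0 to 9 with library totals, 2 with background scaling and 7 with the replicate block. The causes were not tested.

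Same-numbered libraries share only a number: their deviations correlated by -0.22 for CTCF, -0.06 for SMC3 and 0.00 to 0.03 for the other targets. Medians of member fold changes turned in sign for NIPBL (-0.20 with totals, -0.51 with input-subtracted counts), RAD21 (-0.23 without KO replicate 1), WAPL (-0.023 with input-subtracted counts, -0.050 to 0.088 with 1 library left out, below 0 without KO replicate 1 and without WT replicate 2) and H3K27ac (-0.14 with background scaling). Scaling moved the median of all regions from -0.39 to 0.07 (DESeq2) and 0.47 (background) for RAD21, from -0.37 to -0.01 (DESeq2) for CTCF, from -0.22 to 0.15 (background) for SMC3, from 0.07 to 0.24 (totals) and 0.52 (background) for WAPL, from 0.00 to -0.23 (totals) and 0.16 (background) for NIPBL, and from 0.02 to 0.13 (totals) and -0.18 (background) for H3K27ac. Of 58 named called regions, none reversed in 579 alternatives, 105 lost the call, and 29 kept it in all.

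The mean share of start sites with SMC3 in ATPneg minus WT, 61.4 points, was 56.5 for peaks covering the start, 66.8 within 5 kb, 38.6 at the stricter score and 59.8 to 63.0 with 1 library left out. For RAD21, 28.3 points became 48.9 without ATPneg replicate 1 and 7.61 without ATPneg replicate 2. Over member regions, RAD21 went from -8.21 points to 8.93 at the stricter score and 58.7 within 5 kb. SMC3 went from 1.09 to 22.3 and 75.0, and -5.47 to 7.66 with 1 library left out. For RAD21 and SMC3 the values within 5 kb are in part fixed by the choice of regions, as given above. WAPL went from -52.7 to -21.6 and -75.0, and NIPBL from -47.6 to -15.3 at the stricter score and to between -75.9 and -19.4 with 1 library left out.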
